A study of Sus scrofa with 6 samples.

Results

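CDKN2B, CDKN2C and GADD45A encode proteins that slow or stop the cell cycle. They were described in 6 pig cell samples, each hybridised to 1 Affymetrix Pig Genome Array. The members were all probe sets whose platform annotation gave exactly 1 of these symbols. There were 3 such probe sets among 23999, 1 for each gene (3 of 6765 gene symbols): Ssc.15841.1.S1_at for CDKN2B, Ssc.26244.1.S1_at for CDKN2C and Ssc.20913.1.S1_at for GADD45A. No gene therefore had another probe set to check it against. All 3 were kept in every test.

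The 2 somatic samples were PEF, an embryo fibroblast culture, and PAFSC, amniotic fluid stem cells. The other 4 samples were lines of induced pluripotent stem (iPS) cells. Their labels differ in stage-specific embryonic antigens (SSEA), surface glycans used as markers of pluripotent cells. PS24 carried all of SSEA1, SSEA3 and SSEA4 by its label. 30AC5 carried SSEA1, and both iPF4-2 and iPSCs-w carried SSEA3 with SSEA4. Values of the iPS lines are listed below in the order PS24, 30AC5, iPF4-2, iPSCs-w. The stated medium for all cells was DMEM with 15% FBS for 72 hours, and the iPS lines were kept on inactivated mouse embryonic fibroblasts. The labels name no age, breed, donor cell or reprogramming agent for any line. Each cell type or line is 1 array, so the spread within a group is a spread between different cell types or lines.

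The progression of a cell from G1 into DNA synthesis depends on cyclin D bound to the kinases CDK4 and CDK6, which phosphorylate the retinoblastoma protein. CDKN2B (p15INK4b) and CDKN2C (p18INK4c) are INK4 proteins that bind CDK4 and CDK6 and keep them from cyclin D. CDKN2B is a known target of TGF-beta signalling, is repressed by MYC, and lies in the INK4/ARF locus that acts as a barrier to reprogramming of somatic cells. GADD45A is induced by DNA damage and by other stresses. It binds PCNA and the CDK1 kinase, can hold cells before mitosis, and activates the stress kinase MAP3K4.

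The deposited numbers are on a log2 scale, relative to a baseline that is not stated. They compare arrays for one gene and rank no gene against another. The PAFSC array stood apart, with an SD of 2.01 over its probe sets against 0.610 to 0.808 on the others and a median of 0.70 against -0.06 to 0.05. Among the 2261 genes with 2 or more probe sets, the probe sets of a gene lay a median of 1.72 apart on PAFSC, against 0.344 to 0.564 on the other arrays. For 19.8% of those genes PAFSC had 1 probe set at 1 or more and another at -1 or less, and on each other array this held for at most 0.354%. The PS24 array had the lowest 5' minus 3' value in 5 of 6 control pairs, down to -2.03. On PAFSC these pairs ran from -0.93 to 3.66, against -0.40 to 0.69 on PEF, 30AC5, iPF4-2 and iPSCs-w. The part of RNA quality in the PAFSC values was not tested. Fibroblast markers were higher in both somatic samples, with a median of 2.74 over 18 probe sets in PEF, 2.14 in PAFSC and -0.48 to 0.05 in the iPS lines. POU5F1, the gene of the pluripotency factor OCT4, was high in the SSEA3 and SSEA4 lines, at 3.68 and 3.61. PS24 at 0.07 and 30AC5 at -0.07 both lay between PEF at -0.50 and PAFSC at 1.09. Surface markers of mesenchymal stem cells had a median of 1.23 in PEF, 1.47 in PAFSC and -0.48 to 0.37 in the iPS lines, and epithelial markers -0.35, 0.17 and -0.10 to 1.87.

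CDKN2B was high on one array, that of the amniotic fluid stem cells. It was 2.81 in PAFSC and -0.85 in PEF. The iPS lines gave 0.03, -0.03, -0.17 and -0.11. The iPS lines thus lay within 0.198 of each other and between the somatic samples, which stood on either side of them. PAFSC was 2.78 above the next array and PEF 0.68 below the lowest iPS line. The gaps between iPS lines that follow each other in this order were 0.058 to 0.078.

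CDKN2C showed the same single high array without the low value in PEF. It was 2.83 in PAFSC and -0.15 in PEF, and the iPS lines gave 0.09, 0.01, -0.01 and -0.11. The range over the 5 arrays other than PAFSC was 0.235, and the gap from PS24 up to PAFSC was 2.74. PEF lay 0.038 below iPSCs-w, less than the 0.099 between iPF4-2 and iPSCs-w, the lines of the SSEA3 and SSEA4 class. No order can be read among these 5.

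GADD45A varied in another way, with high values in one somatic sample and one iPS line. It was 2.31 in PEF and -0.35 in PAFSC, against -1.79, 2.17, -0.15 and 0.44 for the iPS lines. PEF and 30AC5 were 0.148 apart, and 30AC5 was 1.73 above the next array, iPSCs-w. PS24 was the lowest, 1.44 below PAFSC. The step from iPSCs-w to iPF4-2 was 0.586 and from iPF4-2 to PAFSC 0.203, while the spread of the PS24 and 30AC5 class was 3.96. The order among the middle 3 arrays is therefore not readable. The order of the top 2 depended on scaling: 30AC5 at 2.36 was above PEF at 1.92 after quantile normalization, and PS24 was lowest under all 4 scalings.

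**Figure D1:**
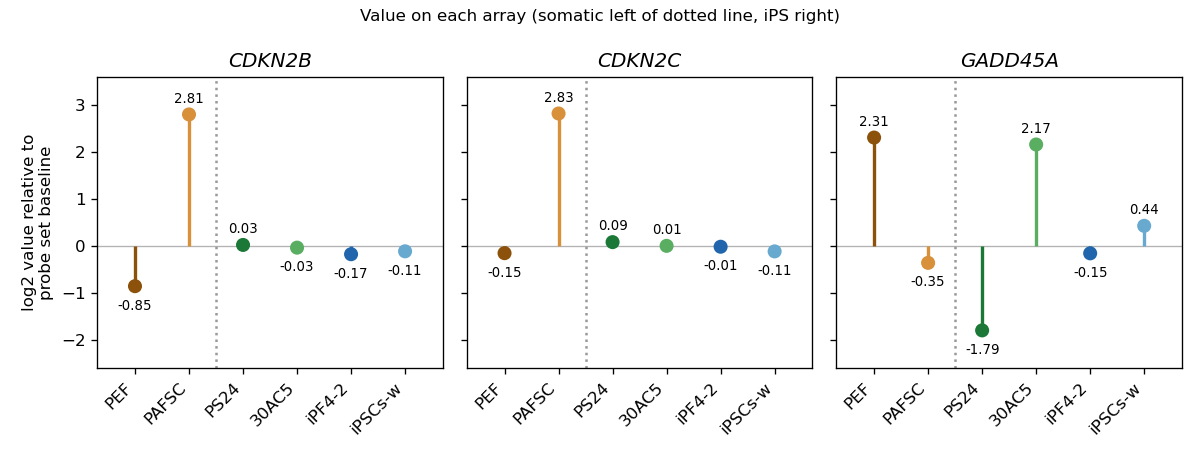
Log2 value relative to the probe set's baseline (y axis) of CDKN2B, CDKN2C and GADD45A on each of the 6 arrays (x axis), 1 point per array. PAFSC is the 1 array far from the rest for CDKN2B (2.81) and CDKN2C (2.83), whereas GADD45A is high in PEF (2.31) and 30AC5 (2.17) and low in PS24 (-1.79).

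The first comparison set the 4 iPS lines against both somatic samples. None of the 3 genes passed the threshold of 0.05 in limma over all probe sets, where 0.025% of probe sets did (6 of 23999, 0.00833% higher and 0.0167% lower in the iPS lines). CDKN2B averaged -0.07 ± 0.09 (SD, n = 4) in the iPS lines and 0.98 ± 2.59 (SD, n = 2) in the somatic samples, a difference of -1.05 (SE 0.89, limma adjusted p = 0.493). CDKN2C averaged -0.00 ± 0.08 (SD, n = 4) and 1.34 ± 2.10 (SD, n = 2), a difference of -1.35 (SE 0.77, limma adjusted p = 0.431). GADD45A averaged 0.17 ± 1.63 (SD, n = 4) and 0.98 ± 1.89 (SD, n = 2), a difference of -0.82 (SE 1.11, limma adjusted p = 0.647). In each case the groups interleaved. For CDKN2B and CDKN2C all 4 lines were above PEF, as for 32.4% of all probe sets, and below PAFSC, as for 52.8%. For GADD45A all 4 were below PEF, as for 19.1% of all probe sets, and 1 of them, PS24, was below PAFSC. Because these are bulk cultures, fewer cells carrying a transcript and less transcript per cell cannot be told apart.

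The sign of the CDKN2B and CDKN2C difference rested on the PAFSC array. Against PEF alone, CDKN2B was higher in the iPS lines by 0.78 (SE 0.25, limma adjusted p = 0.312) and CDKN2C by 0.14 (SE 0.25, limma adjusted p = 0.863). Against PAFSC alone both were lower, CDKN2B by a log2 difference of -2.88 (SE 0.25, limma adjusted p = 0.00132) and CDKN2C by -2.83 (SE 0.25, limma adjusted p = 0.00136). In that comparison limma called 59.6% of all probe sets, 20.7% as higher and 38.9% as lower, so a call there was common to most of the array. GADD45A went the other way: it was -2.15 (SE 1.39, limma adjusted p = 0.617) against PEF alone, where limma called 0.567% of probe sets (0.513% as lower), and 0.52 (SE 1.39, limma adjusted p = 0.771) against PAFSC alone. With a lone somatic array, limma assumes that it varies like the iPS lines.

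**Figure D2:**
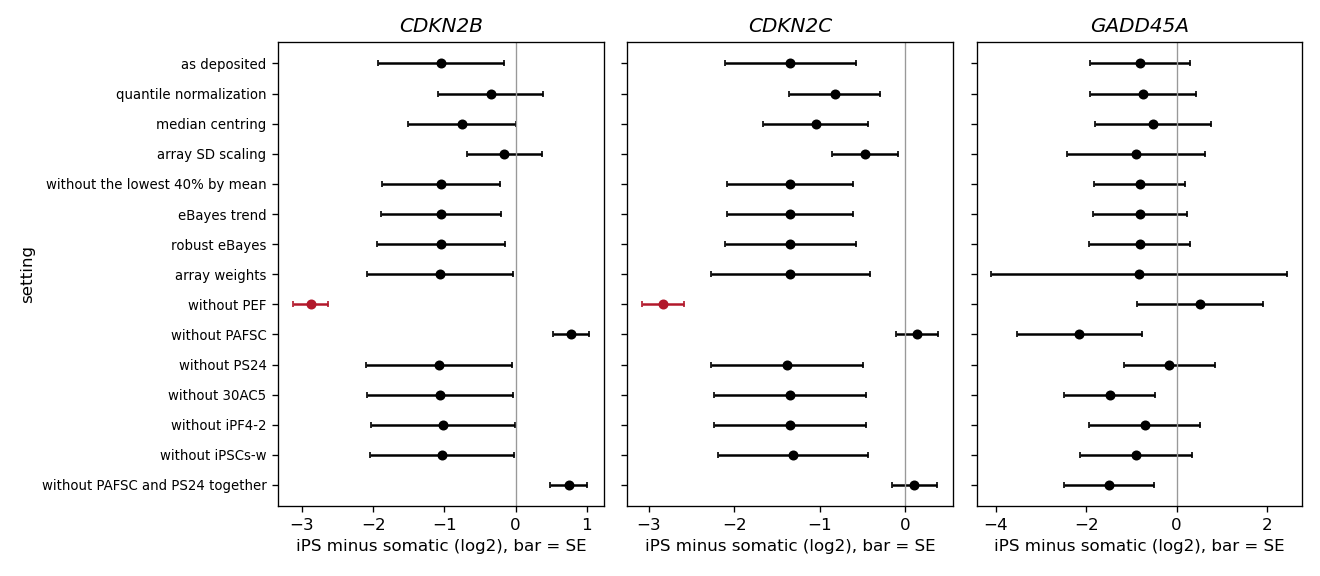
Difference between the 4 iPS lines and the 2 somatic samples (x axis, log2, bars are the SE) for each gene under 15 settings of the test (y axis); red marks a limma adjusted p under 0.05. CDKN2B and CDKN2C are below 0 with both somatic arrays, -2.88 and -2.83 without PEF, and 0.78 and 0.14 without PAFSC.

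The height of CDKN2B and CDKN2C in PAFSC has to be read beside the other probe sets of that array. PAFSC was above all 5 other arrays for 50.1% of probe sets and by 1 or more for 31.1%. A gap at least as large as that of CDKN2B was found for 0.854% (205 probe sets), and at least as large as that of CDKN2C for 0.917% (220). Flat probe sets were commonly raised there: of the 452 probe sets that varied no more than CDKN2C over the other 5 arrays, the median PAFSC value was 1.43 and 60.4% were at 1 or more. Values as high as that of CDKN2C were held by 3.54% of them. For CDKN2B the PAFSC minus PEF difference was 3.66, matched or exceeded by 0.325% of probe sets, and for CDKN2C it was 2.97, matched or exceeded by 2.29%. The background for a difference of 1 or more in this direction was 44.6%, and for -1 or less, where GADD45A lay at -2.67, 25.7%. The size also depended on the scale of the arrays. After each array was centred on its median and divided by its SD, the PAFSC values were 0.96 for CDKN2B and 0.97 for CDKN2C, still the highest of the 6 arrays. After quantile normalization they were 1.76 and 1.80.

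Several lists of cell markers also differed between PAFSC and PEF. Blood and endothelial markers were higher in PAFSC for 17 of 17 probe sets of 9 genes, with a median difference of 2.10 against 0.72 over all probe sets. For 16 of 17 it was 1 or more (background 44.6%). Their median was 1.81 in PAFSC, -0.18 in PEF and -0.03 to 0.14 in the iPS lines. Probe sets that varied little on the other 5 arrays were commonly raised in PAFSC. Of the 11315 that varied no more than CDKN2B there, 59.1% were at 1 or more in PAFSC, with a median of 1.37. Epithelial markers were higher in PAFSC for 12 of 16 probe sets (median difference 1.51) and pluripotent cell markers for 5 of 5 (1.38). The median difference was -1.29 for mesenchymal stem cell markers and -0.07 for fibroblast markers. The part of any marked cell type in the CDKN2B and CDKN2C values was not tested.

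**Figure D3:**
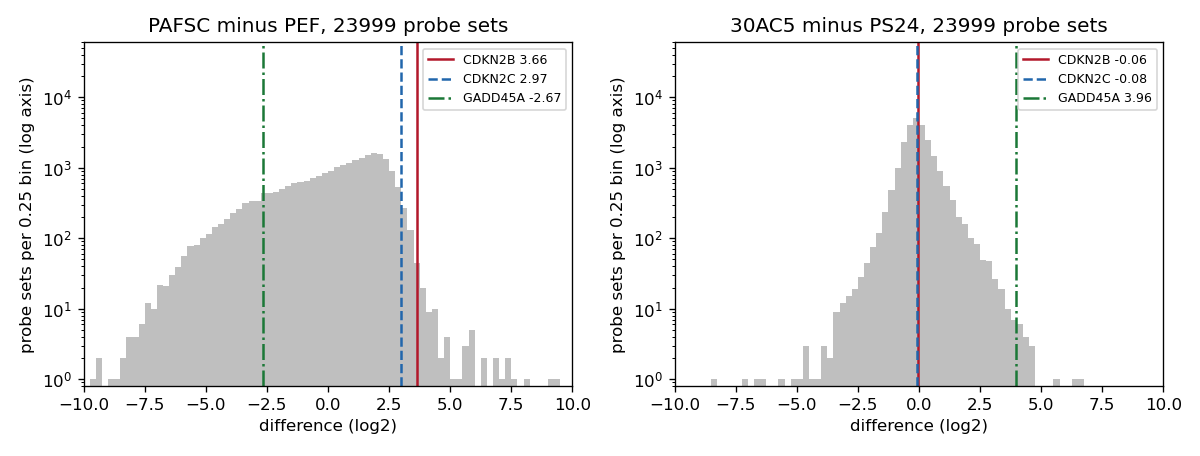
Number of probe sets (y axis, log scale, bins of 0.25) by the difference between arrays (x axis, log2) for PAFSC minus PEF (left) and 30AC5 minus PS24 (right), with a vertical line for each gene. CDKN2B at 3.66 and CDKN2C at 2.97 lie in the upper tail of a wide distribution on the left, and GADD45A at 3.96 lies in the far upper tail on the right.

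The second comparison set the lines labelled with SSEA1 (PS24 and 30AC5) against iPF4-2 and iPSCs-w, whose labels lack SSEA1. No probe set passed in limma (0 of 23999, 0%), and 681 (2.84%) had an unadjusted p under 0.05. CDKN2B averaged 0.00 ± 0.04 (SD, n = 2) and -0.14 ± 0.04 (SD, n = 2), a difference of 0.14 (SE 1.10, limma adjusted p = 1.00). CDKN2C averaged 0.05 ± 0.06 (SD, n = 2) and -0.06 ± 0.07 (SD, n = 2), a difference of 0.11 (SE 0.96, limma adjusted p = 1.00). For both genes the SSEA1-labelled lines were above the others without overlap, as for 21% of all probe sets. The SE is far wider than the spread of these 4 lines because the test pools it with the distance between PEF and PAFSC. With the 4 iPS lines alone the SE was 0.25 for each gene (limma adjusted p = 0.905 and 0.929).

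GADD45A did not separate the marker classes, and its largest difference among the iPS lines lay within one of them. The SSEA1-labelled lines averaged 0.19 ± 2.80 (SD, n = 2) and the others 0.14 ± 0.41 (SD, n = 2), a difference of 0.05 (SE 1.36, limma adjusted p = 1.00). 30AC5 was 3.96 above PS24. A difference at least as large in this direction was found for 0.0708% of probe sets, and 6.72% differed by 1 or more. There is 1 array on each side, so this has no replicate check. The range of GADD45A over the 4 iPS lines was matched or exceeded by 1.61% of probe sets, against 96.5% for CDKN2B and 96.5% for CDKN2C. PS24 is also the array with low 5' control values, and the part of RNA quality in its GADD45A value was not tested. Without PS24 the class difference was 2.02 (SE 1.30), and without 30AC5 it was -1.93 (SE 1.30), each at a limma adjusted p of 1.00.

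Among the other CDK inhibitors, CDKN2D, CDKN1A and CDKN3 were not highest in PAFSC, and 1 of 3 CDKN1B probe sets was. CDKN2D (p19INK4d), the third INK4 gene measured, was 0.55 in PEF and 0.53 in PAFSC, against 0.00, 0.78, -1.05 and -0.45 for the iPS lines. Both SSEA1-labelled lines were above both others, as for 21% of all probe sets, by 1.14 (SE 0.64, limma adjusted p = 1.00). CDKN1A (p21), an inhibitor of CDK2, was 2.04 in PEF and -1.44 in PAFSC, against 0.96, 0.21, -0.13 and 0.03 for the iPS lines. The somatic samples again stood on either side of the 4 lines, but with PEF high and PAFSC low.

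CDKN1B (p27), which binds cyclin E and CDK2 complexes, had 3 probe sets, and they disagreed in PAFSC at 2.89, 1.10 and -1.16. The second of these lay between -0.10 and 0.32 on the other 5 arrays. Its 1.10 in PAFSC was its highest value, but an ordinary one for that array. Of the 11315 probe sets that varied no more than CDKN2B over the other 5 arrays, the median PAFSC value was 1.37. In 30AC5 the 3 were 3.18, 0.24 and 1.49, and in PS24 -0.58, 0.32 and -0.53. CDKN3, a phosphatase that acts on CDK2, was -1.03 in PEF and -1.76 in PAFSC, against -0.60, 0.34, -0.07 and 0.07 for the iPS lines. All 4 lines were above both somatic samples, a difference of 1.33 (SE 0.50, limma adjusted p = 0.337). Such a separation was seen for 11.9% of all probe sets. Of the 8 probe sets of these 6 CDK inhibitor genes, limma called 0, and 1 (CDKN3) had an unadjusted p under 0.05, against 13.7% of all probe sets.

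The relatives of GADD45A each had a pattern of their own. GADD45B, induced by TGF-beta and inflammatory signals, was 2.32 in PEF and 0.05 in PAFSC on one probe set with -0.05, -0.71, -0.72 and -0.20 in the iPS lines. The other probe set gave 2.25 for PEF, 0.34 for PAFSC and -0.35, -0.33, -0.62 and -0.33 for the lines. Both probe sets put all 4 lines below both somatic samples, as for 9.99% of all probe sets. The differences were -1.61 (SE 0.67, limma adjusted p = 0.357) and -1.70 (SE 0.60, limma adjusted p = 0.325). They were negative under all 15 settings run. Without PAFSC the second probe set passed, at -2.66 (SE 0.27, limma adjusted p = 0.0351), and over the other settings of that probe set it did not. Without PEF the differences were -0.48 (SE 0.37, limma adjusted p = 0.318) and -0.75 (SE 0.27, limma adjusted p = 0.0563). GADD45A and GADD45B thus shared the high value in PEF, but not the high value in 30AC5.

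GADD45G, a family member known from germ cells and early development, separated the marker classes. PS24 was at -1.57 and 30AC5 at -2.95, while iPF4-2 was at 2.06, iPSCs-w at 0.29, PEF at 0.13 and PAFSC at -0.64. The SSEA1-labelled lines lay below all other arrays. The class difference was -3.44 (SE 0.84, limma adjusted p = 0.762, unadjusted p = 0.00388). Both SSEA1-labelled lines were below both others for 20.2% of all probe sets. The difference was negative under all 15 settings that kept this probe set, from -4.88 to -2.55, and passed in 1 of them, with array weights (limma adjusted p = 0.0216). That setting called 575 probe sets. GADD45GIP1, a mitochondrial protein named for binding GADD45 proteins, ran from -1.37 in PEF to 0.16 in PAFSC, with the iPS lines between -0.76 and 0.11.

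**Figure D4:**
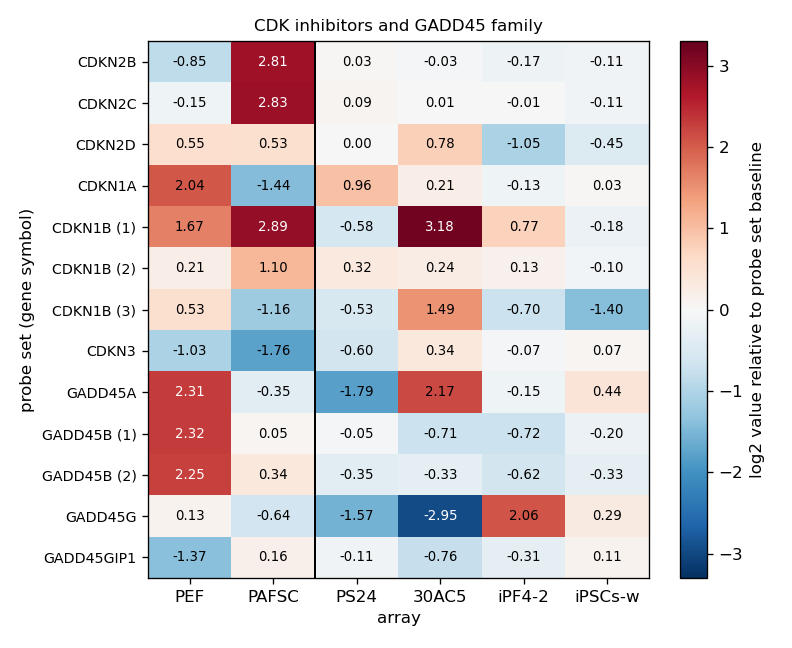
Log2 values relative to each probe set's baseline (colour and printed number) for 13 probe sets of CDK inhibitors and the GADD45 family (rows) on 6 arrays (columns, somatic samples left of the black line); numbers in brackets count the probe sets of a gene. The deep red PAFSC cells of CDKN2B and CDKN2C contrast with the PEF column, where CDKN1A, GADD45A and GADD45B are at 2.04 to 2.32. The CDKN1B probe set at 2.89 in PAFSC is also high in 30AC5 (3.18) and at 1.67 in PEF.

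The pathway around these genes was followed in lists of related genes, counted by probe set. In the iPS against somatic comparison the median over all probe sets was -0.34. Limma called 0 probe sets of each pathway list described here in either comparison. The G1 machinery that INK4 proteins act on was represented by 8 probe sets of 6 of 20 listed genes, 0 with an unadjusted p under 0.05 and a median of 0.31. CCND2, a D-type cyclin, was 1.23 in PEF and -0.70 in PAFSC, against 1.25, 1.06, 0.47 and -1.59 for the iPS lines. RBL2, a relative of the retinoblastoma protein, was 0.14 in PEF and 1.35 in PAFSC, against 0.35, 0.43, -1.18 and -0.78 for the iPS lines. TFDP2, a dimer partner of E2F proteins, was -0.74 in PEF and 0.47 in PAFSC, with -0.13, 0.13, 2.23 and 1.44 in the lines. The SSEA1-labelled lines were above both other lines for CCND2 and RBL2 and below both for TFDP2. Of all probe sets, 21% had these lines above and 20.2% had them below. Beside both shares together, 3 of the 8 probe sets is no excess. E2F3 lay between -0.75 and 0.64 on all arrays, and CDK2 had 3 probe sets that disagreed in PAFSC, with values above 0 on 2 of them (1.10 and 2.41) and below 0 on the other. CDK4, CDK6 and the other D-type cyclins were not analysed here.

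Genes that act on CDKN2B through TGF-beta and MYC had 22 probe sets of 10 genes, of which 20 were lower in the iPS mean, with a median of -0.64 and 3 at an unadjusted p under 0.05 (background 13.7%). Against PEF alone the median was -0.15, with 7 of 22 higher in the iPS mean. MYC was 5.55 in PEF and -0.14 in PAFSC, against -0.75, 0.15, 0.29 and -1.04 for the iPS lines. PEF had the highest MYC and the lowest CDKN2B of the 6 arrays. Over the other 5 arrays MYC lay between -1.04 and 0.29, while CDKN2B ran from -0.17 to 2.81. A relation between MYC and CDKN2B was not tested. TGFB3, a ligand of the pathway, was 2.76 in PEF and 2.66 in PAFSC, with -0.32 to 0.23 in the iPS lines on one probe set (-2.74, SE 0.45, limma adjusted p = 0.119), and on the other 0.21, 1.28 and -0.33 to 0.13. TGFB2 had 4 probe sets, which were 1.90 to 3.04 in PEF and -0.70 to 1.36 in PAFSC. In iPSCs-w they were 0.42 to 2.72, and in the other 3 lines -0.88 to 0.13. TGFBR1, a receptor of the pathway, had 3 probe sets that disagreed in PAFSC, at 1.87, 0.37 and -3.46, and lay between -0.91 and 0.50 in every other sample.

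Repressors of the INK4 locus had 6 probe sets of 5 of 12 listed genes, with a median of -0.13 and 1 at an unadjusted p under 0.05 (background 13.7%). Against PEF alone the median was 0.44, with 4 of 6 higher in the iPS mean. The one was EZH2, the Polycomb methyltransferase, at -0.79 in PEF, -1.64 in PAFSC and -0.57 to 0.57 in the iPS lines (1.23, SE 0.53, limma adjusted p = 0.364). RING1, a Polycomb ubiquitin ligase, was 0.48 and 1.02 in the somatic samples and -0.74 to 0.02 in the iPS lines. EED, a partner of EZH2, ranged from -1.63 to 1.84 over its 2 probe sets, with PAFSC highest on both. RNF2, the partner of RING1, was -1.04 in PEF and -2.07 in PAFSC, against -1.50, -0.16, 0.22 and 0.16 for the iPS lines.

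Stress genes that share inducers with GADD45A had 15 probe sets of 12 of 16 listed genes, with a median of -1.07. Of these 7 had an unadjusted p under 0.05 (background 13.7%). For the same 7 all 4 iPS lines lay below both somatic samples (background 9.99%), so the 2 counts are not separate results. EGR1 gave 3 of the 7, and DDIT3, HSPA5, PPP1R15A and JUN gave 1 each. DDIT3, a transcription factor of the endoplasmic reticulum stress response, was 1.69 in PEF and 1.65 in PAFSC, against -0.93, 1.08, -0.33 and 0.33 for the iPS lines. Among the iPS lines it thus had the same order as GADD45A, highest in 30AC5 and lowest in PS24, but it was high in both somatic samples. ASNS, an asparagine synthetase induced in amino acid shortage, was 0.44 in PEF and -3.62 in PAFSC, against -0.60, 0.72, -0.25 and 0.73 for the iPS lines. JUN, a transcription factor of the stress kinase pathway, was 1.28 in PEF and 1.22 in PAFSC, with -0.46 to 0.49 in the iPS lines. EGR1, an immediate early transcription factor, was 2.03 to 3.52 in the somatic samples over 3 probe sets and -2.33 to 2.51 in the iPS lines. Over the list, 30AC5 was above PS24 by 1 or more for 4 of 15 probe sets (background 6.72%). It was below by as much for 1, and the share of all probe sets for that direction is not given here. The median difference was -0.03, against -0.07 over all probe sets.

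The list of the GADD45 family and its partners had 12 probe sets of 9 of 10 genes, with a median of 0.02. Of these 6 had an unadjusted p under 0.05 (background 13.7%). They were both GADD45B probe sets, and PCNA, MAP3K4, CCNB1 and 1 MAPK14 probe set, which were low in PAFSC. Partners had both low and high values in PAFSC. MAPK8, the JNK stress kinase, was 2.00 and 3.03 there on its 2 probe sets and -0.25 to 0.60 on the other arrays. PCNA, the DNA clamp, was -0.16 in PEF and -6.55 in PAFSC, with -0.13 to 0.85 in the iPS lines. MAP3K4, the kinase that GADD45 proteins activate, was -1.16, -3.67 and -0.38 to 0.53 in the same samples, and CCNB1, the cyclin of CDK1, was -0.61, -3.96 and -0.34 to 0.32. MAPK14, the p38 stress kinase, had 2 probe sets, at -0.43 and -2.75 in PAFSC and at 1.57 and 1.89 in 30AC5. In PS24, where GADD45A was lowest, they were 0.75 and 1.44. They were -0.66 and -0.10 in iPF4-2, and 0.00 and 0.27 in iPSCs-w. Replication and mitosis genes were lower in PEF than in the iPS mean for 31 of 31 probe sets, with a median difference of 0.61 against 0.13 over all probe sets. Their median was -1.24 in PAFSC, -0.34 in PEF and 0.01 to 0.23 in the iPS lines. Among the genes named for this list, PAFSC was at -7.24 for TOP2A, a DNA topoisomerase, and -5.51 for CCNB2, a mitotic cyclin. PAFSC was above PEF for 12 of 31 probe sets, with a median difference of -0.67 against 0.72 over all probe sets. PAFSC was above by 1 or more for 9 (background 44.6%) and below by 1 or more for 13 (background 25.7%). Within PAFSC the probe sets of one gene disagreed here too: NUSAP1, a spindle protein, was -0.76 and -5.66, and UBE2C, a ubiquitin-conjugating enzyme of mitosis, was -2.67 on one and 1.93 on the other.

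The patterns most like each member were sought among the 10068 other probe sets with 1 symbol, by Pearson correlation over the 6 arrays after subtraction of array medians. These points share their array and its scaling, and the values are a description. For CDKN2B the closest were OXT, ZNF395, HTR4 and PTPN6 (r = 1.00 each), and 599 probe sets exceeded 0.95. For CDKN2C they were PLK3, SSTR3, 1 of the DCN probe sets and AKT1 (r = 1.00 each), and 972 exceeded 0.95. CDKN2B and CDKN2C correlated at 0.97 over the 6 arrays and 0.55 over the 5 without PAFSC, where 1 and 0 of their 4 closest probe sets were retained. The 4 closest to CDKN2B over 6 arrays correlated with it at 0.97 to 1.00 without PAFSC, and those of CDKN2C at 0.63 to 0.94. These probe sets were chosen with the same 5 arrays included, so this is no separate check. Over the 5 arrays CDKN2B was -0.85 in PEF and -0.17 to 0.03 in the iPS lines, so its correlations there rest mainly on PEF.

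GADD45A had 10 probe sets above 0.95 over the 6 arrays. Without PAFSC the counts were 66 for GADD45A, 129 for CDKN2B and 82 for CDKN2C. The closest were DNAJB9, a co-chaperone of the endoplasmic reticulum (r = 0.99), USP18, an interferon-induced protease (r = 0.98), ARL6IP5, a membrane protein (r = 0.98), and TCEANC (r = 0.98). DNAJB9 was 0.96 in PEF and 0.01 in PAFSC, against -1.11, 0.61, -0.44 and -0.01 for the iPS lines. Without PAFSC, 1 of these 4 stayed among the closest 4, DNAJB9 at 0.99.

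**Figure D5:**
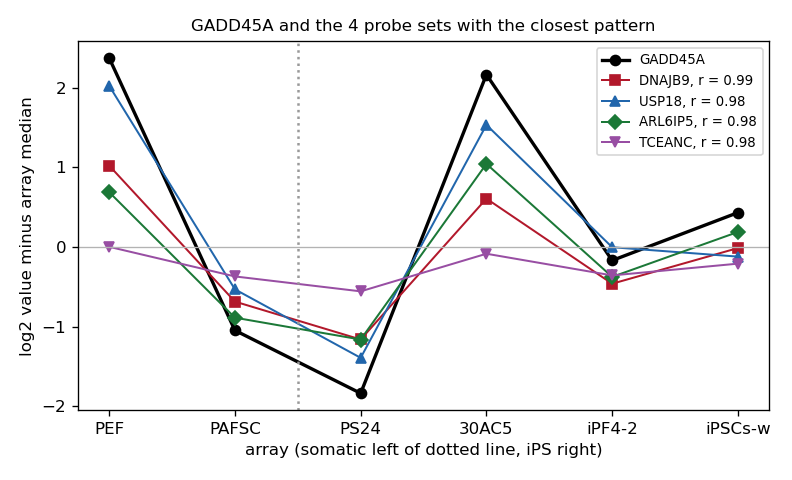
Log2 value minus the array median (y axis) of GADD45A (black) and the 4 probe sets with the highest Pearson correlation to it over the 6 arrays (x axis). All 5 have their lowest value in PS24, the array where GADD45A is at -1.79 before the median is subtracted.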

How the data were processed

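RNA of 6 pig samples was measured on 1 Affymetrix Pig Genome Array each, per the labels. The deposited table holds log2 values of 24123 probe sets. The sources used here do not state how the authors summarized or scaled them, nor the baseline. Array controls (124) were left out. Symbols came from the platform annotation, and RefSeq (Sscrofa11.1) gave the same symbols for the members.

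R 4.3.3 ran limma 3.58.1 (two-sided, Benjamini-Hochberg over 23999 probe sets, threshold 0.05). Tested on simulated data, the fit of iPS against somatic called only the larger changes and the marker class fit called none, so a gene that did not pass is not shown to be unchanged. The iPS against somatic fit had 2 groups, and the marker classes were compared in a fit of 3. Pairs of single arrays were not tested. Nothing states separate cultures of a line. The p-values cover the spread between the different cell types or lines of a group. Technical variation of the arrays cannot be told apart from that spread, and the number of arrays limits precision.

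The members and lists were chosen with earlier results of these data known. Named were the members, the CDK inhibitor and GADD45 families, D-type cyclins and MYC, up to 4 genes per pathway list by size of the iPS difference, and the 4 closest patterns. MAPK8 and UBE2C were picked after their values were seen. Results of 1 pathway list are not reported here. Alternatives were 3 scalings, a filter on the lowest 40% by mean, trended or robust eBayes, array weights, the 4 iPS lines alone and each sample left out in turn. A fit lacking both PAFSC and PS24 was chosen after seeing the data.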

Additional observations from a re-analysis of the deposited data

Results flagged for a closer look

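In 87 probe sets of named genes the spread of the 4 iPS lines was searched for a single distant line, and 2 had one; chance gives about 1 in 20. One GADD45B probe set was -0.62 in iPF4-2, apart from the other 3 lines at -0.35 to -0.33. One TGFB2 probe set was 2.72 in iPSCs-w, apart from the other 3 at -0.30 to 0.12.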

How the results depend on the processing

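None of the 3 genes passed in either comparison, and the sign of the iPS against somatic difference depended on which somatic array was used. Leaving out 1 sample moved CDKN2B from -2.88 to 0.78, CDKN2C from -2.83 to 0.14 and GADD45A from -2.15 to 0.52. The calls of CDKN2B and CDKN2C came without PEF (limma adjusted p = 0.00132 and 0.00136). Without PAFSC and PS24 together the differences were 0.75 for CDKN2B and 0.11 for CDKN2C. Under the 3 scalings, the filter, trended or robust eBayes and array weights each gene kept its sign, and limma called none. The size moved with the scaling: CDKN2B, at -1.05 as deposited, was -0.35 after quantile normalization and -0.16 after SD scaling, and CDKN2C, at -1.35, was -0.82 and -0.46.

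Between the marker classes CDKN2B stayed at 0.11 to 0.26 and CDKN2C at 0.06 to 0.20 over 16 settings. GADD45A was -0.14 after quantile normalization, -0.25 without iPF4-2, and ran from -1.93 to 2.02 with 1 sample left out.

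The iPS against somatic count of 6 called probe sets became 1 after median centring, 0 after SD scaling, 35 without the lowest 40% by mean, 2 with a trend, 0 with array weights and 0 without PAFSC and PS24 together. It ran from 0 to 14303 with 1 sample left out: 14303 without PEF, 136 without PAFSC, 0 without any one of PS24, 30AC5 and iPSCs-w, and 1 without iPF4-2. Where the count was 0, limma gave 420 to 2915 probe sets an unadjusted p under 0.05. The count of 0 between the classes became 90 after quantile normalization, 36 after SD scaling, 44 without the lowest 40% by mean, 575 with array weights and 4 with the iPS lines alone. It ran from 0 to 4 with 1 sample left out, where 333 to 2655 had an unadjusted p under 0.05. The cause of these changes was not tested. No paired analysis was possible because the labels give no replicate numbers. The precision is limited by 1 array per cell type or line.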

Other observations

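In RefSeq gene order, the next measured neighbour of CDKN2B is P14ARF, the ARF reading frame of the INK4/ARF locus. Its probe set was -2.86 in PEF and -0.02 in PAFSC, against 1.53, -0.30, 1.89 and 0.43 for the iPS lines, so all 4 lines were above PEF, as for 32.4% of all probe sets, and 3 of 4 were above PAFSC. The iPS against somatic difference was 2.33 (SE 0.91, limma adjusted p = 0.341), opposite in sign to that of CDKN2B. The ARF transcript shares sequence with the p16INK4a transcript of the same gene, CDKN2A, and what this probe set binds was not tested. FAF1, which neighbours CDKN2C, was 2.40 in PAFSC and -0.05 to 0.08 on the other 5 arrays. Such a pattern was common: of the 452 probe sets that varied no more than CDKN2C over those 5 arrays, 60.4% were at 1 or more in PAFSC. No other gene among the 3 nearest on either side of CDKN2C had a probe set.

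Of the 3 nearest genes on either side of GADD45A, DIRAS3, a growth-inhibiting small GTPase, was 0.90 in PEF and -1.35 in PAFSC, against -1.83, 1.10, -0.51 and -1.95 for the iPS lines. It thus had its high values in the same arrays as GADD45A, PEF and 30AC5. WLS, a carrier of Wnt proteins, was 1.02 in PEF and 0.33 in 30AC5, and between -3.89 and -0.43 on the other 4 arrays. GNG12, which lies between GADD45A and DIRAS3, did not share it, at 1.21 in PEF, 0.81 in PS24 and -0.23 in 30AC5. IL12RB2, on the other side of GADD45A, was -0.36 in PEF, -0.09 in 30AC5 and 1.89 in PAFSC. SERBP1, also on that side, did not share this order on either of its probe sets, at -0.44 and -0.76 in PEF. These neighbours were looked at after the values of the members were known.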
